A study of Homo sapiens with 11 samples.

Results

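The 9 genes described here mark the luminal or the basal identity of breast cells. They are ESR1, PGR, ERBB2, GATA3, FOXA1, XBP1, TFF1 and SPDEF on the luminal and receptor side and TP63 on the basal side. They were chosen by name, and each was read over its hg19 gene span plus 5 kb on both sides. Of the 229591 enriched intervals in 10 lists, 86 overlapped these regions. The lists come from ChIP-seq in MDA-MB-231, an established triple-negative human breast cancer cell line, either knocked out for mdig (KO) or with normal mdig protein (WT). Mdig is also known as MINA53 or RIOX2. Per the labels, CRISPR-Cas9 was used to make both kinds of cells and both were grown with blasticidin. Whether either is a single clone is not given in the sources used here. There was 1 KO and 1 WT library for each of 5 antibodies, against H3K4me3, H3K36me3, H3K9me3, H4K20me3 and mdig itself (MINA). All values below describe these libraries. They were not tested, and a gene without an interval may still carry the mark at a level that was not called.

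In the breast, luminal cells line the ducts and basal cells lie beneath them. ESR1 encodes the estrogen receptor, which acts on chromatin with the factors FOXA1 and GATA3 and switches on targets such as PGR, XBP1 and TFF1. SPDEF is an ETS factor of luminal and secretory cells. TP63 encodes p63, a p53-related factor that keeps basal cells in their state. H3K4me3 marks gene starts that are active or poised, H3K36me3 follows transcribed gene bodies, and H3K9me3 and H4K20me3 mark silent chromatin. Triple-negative tumours are defined by the lack of estrogen receptor, progesterone receptor and amplified ERBB2.

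In the whole lists, KO covered 0.844 of the WT length for H3K4me3, 1.00 for H3K36me3, 1.20 for H3K9me3, 2.23 for H4K20me3 and 0.298 for MINA. A gene was called higher or lower in KO when its covered length differed by at least 1.5 times, with at least 1 kb in either genotype. The background for these calls was the share of 50-kb tiles of the genome that passed the same rule.

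The 9 regions fell into different chromatin types. Intervals of H3K4me3 lay within 2 kb of the gene start in 6 of 9 genes in KO and in 6 of 9 in WT, namely PGR, ERBB2, FOXA1, XBP1, SPDEF and TP63. In comparison, 5.64% of all positions in KO and 6.43% in WT lay as close to such an interval, although gene starts are not ordinary positions. The gene start here is the outer end of the hg19 span. Other starts of a gene, as listed for ESR1 and GATA3 (6 each), were not counted. At ERBB2 the counted interval borders PGAP3 as well. Both H3K4me3 and H3K36me3 were found over ERBB2, XBP1 and SPDEF in both genotypes, and over GATA3 with H3K4me3 at the edge of the region only. PGR, FOXA1, ESR1 and TP63 had H3K4me3 but no H3K36me3 in either genotype, and TFF1 had neither. Against this base pattern, SPDEF was the gene in which all 5 antibodies passed the 1.5-fold rule. It was higher in KO for the 4 histone marks and lower for MINA, although MINA came to 1.02 times WT when the KO length was divided by the ratio of the whole list.

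**Figure D1:**
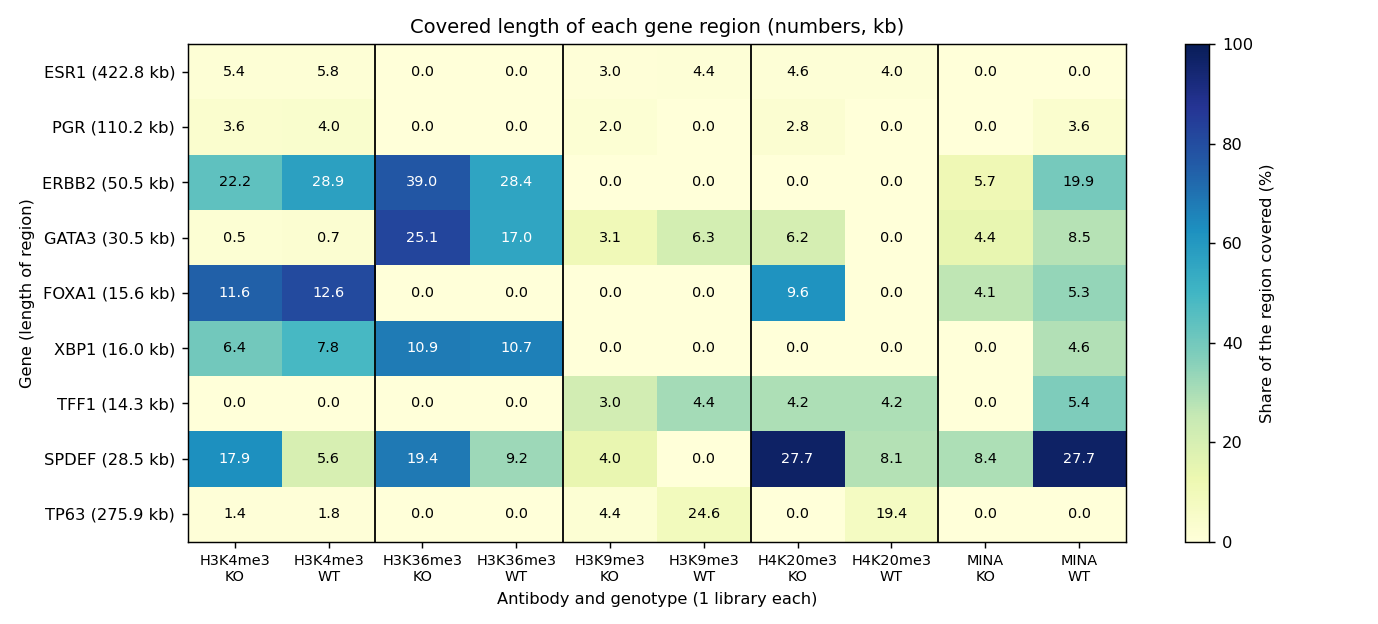
Covered length (numbers, kb) and share of the region covered (colour, %) for each gene in rows and each library in columns, KO left of WT. SPDEF has 17.9 kb of H3K4me3 in KO against 5.6 kb in WT, and H4K20me3 over PGR, GATA3 and FOXA1 appears in KO only.

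The promoters of these genes differed in sequence. H3K4me3 is known to lie mostly on starts rich in the dinucleotide CG. The RefSeq promoter table (GRCh38.p14, 250 bases before to 50 bases after a start) had entries for 8 of the 9 genes. For 7 of them a start lay at the same distance from the gene's end as in the hg19 span, within 150 bases. CG, which reads the same on both strands, occurred in 96.0% of the 35116 promoters of the table, with a median of 14 per promoter. The promoters printed here were picked because they pair a marked or unmarked start with few or many CG. They belong to SPDEF (chr6:34556280-34556579, minus strand), PGR (chr11:101129764-101130063, minus strand), TP63 (chr3:189631139-189631438, plus strand), XBP1 (chr22:28800520-28800819, minus strand) and GATA3 (chr10:8054438-8054737, plus strand). Each CG is in capitals.
SPDEF: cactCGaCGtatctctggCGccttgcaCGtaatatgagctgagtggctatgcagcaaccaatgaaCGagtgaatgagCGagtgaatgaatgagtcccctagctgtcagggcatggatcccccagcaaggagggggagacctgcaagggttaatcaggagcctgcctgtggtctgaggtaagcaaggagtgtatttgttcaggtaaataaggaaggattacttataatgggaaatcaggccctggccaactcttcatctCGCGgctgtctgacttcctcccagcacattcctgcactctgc
PGR: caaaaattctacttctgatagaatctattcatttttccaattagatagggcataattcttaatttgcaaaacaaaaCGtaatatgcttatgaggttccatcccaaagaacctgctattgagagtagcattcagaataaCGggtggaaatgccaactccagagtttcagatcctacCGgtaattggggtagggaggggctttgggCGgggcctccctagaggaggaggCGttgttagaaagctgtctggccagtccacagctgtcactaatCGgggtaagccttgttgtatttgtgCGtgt
TP63: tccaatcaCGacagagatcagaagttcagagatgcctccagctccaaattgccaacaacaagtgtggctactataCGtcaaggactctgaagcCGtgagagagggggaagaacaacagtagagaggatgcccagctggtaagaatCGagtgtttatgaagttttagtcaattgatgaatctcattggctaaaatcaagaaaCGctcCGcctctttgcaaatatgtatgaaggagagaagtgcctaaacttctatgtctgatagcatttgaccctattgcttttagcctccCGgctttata
XBP1: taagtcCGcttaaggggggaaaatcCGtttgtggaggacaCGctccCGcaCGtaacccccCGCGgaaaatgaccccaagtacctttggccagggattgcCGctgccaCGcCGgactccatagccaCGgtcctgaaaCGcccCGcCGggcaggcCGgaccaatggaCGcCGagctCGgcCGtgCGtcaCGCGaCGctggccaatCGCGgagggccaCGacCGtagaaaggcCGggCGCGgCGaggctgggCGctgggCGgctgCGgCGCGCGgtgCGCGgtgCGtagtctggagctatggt
GATA3: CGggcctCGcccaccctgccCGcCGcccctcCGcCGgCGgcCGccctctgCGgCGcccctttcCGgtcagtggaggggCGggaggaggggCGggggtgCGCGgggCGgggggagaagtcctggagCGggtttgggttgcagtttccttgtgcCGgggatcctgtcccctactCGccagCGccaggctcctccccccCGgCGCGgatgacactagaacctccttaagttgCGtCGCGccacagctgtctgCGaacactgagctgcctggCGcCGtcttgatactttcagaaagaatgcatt
The promoters of SPDEF, PGR and TP63 held 8, 7 and 7 CG, below the median of the table, and these starts carried H3K4me3 in both genotypes. XBP1 had 40 CG, FOXA1 34 and ERBB2 24, and their starts were marked as well. GATA3 had 29 CG and no H3K4me3 interval within 2 kb in KO or WT. Among these 7 promoters only that of GATA3 was unmarked, and its count of CG lay within the range of the marked ones. A single start cannot show how the count relates to the mark, and the GATA3 span need not begin at the start in use. RefSeq gives GATA3 29866 bp in GRCh38 against 20511 bp for the span, and the part further out was not compared here.

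H3K4me3 differed by less than 1.5 times between KO and WT over 6 of the 7 genes with at least 1 kb of it. Over ESR1 it covered 5.4 kb in KO and 5.8 kb in WT, and over PGR 3.6 kb in KO and 4.0 kb in WT. ERBB2 had 22.2 kb in KO and 28.9 kb in WT, FOXA1 11.6 kb in KO and 12.6 kb in WT, and XBP1 6.4 kb in KO and 7.8 kb in WT. TP63 had the shortest cover, with 1.4 kb in KO and 1.8 kb in WT. The KO value was the lower one in each of these 6 genes, as it was in the whole list. All 13 intervals of KO over the 9 regions overlapped a WT interval, and all 13 of WT overlapped a KO interval. Genome-wide, 5.85% of KO intervals and 14.9% of WT intervals had no such partner. One gene was higher in KO (background 7.66% of tiles) and none was lower (background 24.5%).

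SPDEF was that gene. In KO a single H3K4me3 interval of 19.4 kb (chromosome 6 from 34511201 to 34530600) reached from 6.5 kb before the start to 12.9 kb into the gene. In WT the interval spanned 5.6 kb (34520001 to 34525600), from 1.5 kb before to 4.1 kb after the start. Within the region this gave 17.9 kb in KO and 5.6 kb in WT, a ratio of 3.20. A ratio of at least 3 towards KO, a limit set after this value had been seen, occurred in 4.20% of tiles. Of all KO intervals of H3K4me3, 1.36% were at least as wide. The 5 Mb on each side of SPDEF held 1.40 Mb of H3K4me3 in KO and 1.40 Mb in WT, a ratio of 1.00. The whole list had a lower ratio, 0.844.

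The other marks over SPDEF differed too. H3K36me3, the gene-body mark, covered 19.4 kb in KO and 9.2 kb in WT, a ratio of 2.11, and ran from 1.1 kb after the start in KO but from 10.3 kb after it in WT. The surroundings held 2.62 Mb of it in KO and 2.38 Mb in WT. H3K9me3 covered 4.0 kb in KO, from 4.5 to 0.5 kb before the start, and had no interval in WT. H4K20me3 covered 27.7 kb of the 28.5-kb region in KO and 8.1 kb in WT, a ratio of 3.42. Without the flank the ratio was 5.72, and with the KO length divided by the ratio of the whole list it was 1.54, just past the rule. The surroundings of SPDEF had an H4K20me3 ratio of 5.70, so that the region lay inside a longer stretch with more of this mark in KO, whose part in the SPDEF value was not tested. MINA covered 8.4 kb in KO and 27.7 kb in WT, and the WT interval over the gene start (33.4 kb wide) was not found in KO. The surroundings of SPDEF had a MINA ratio of 0.856, above the 0.298 of the whole list. In KO, 17.1 kb of the region carried H3K4me3 and H4K20me3 on the same bases, against 4.6 kb in WT. H3K36me3 and H4K20me3 shared 18.6 kb in KO and none in WT. Since H4K20me3 covered 97.2% of the region in KO, most of any other mark there had to share bases with it. The lists do not tell whether the marks sit on the same DNA molecules.

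**Figure D2:**
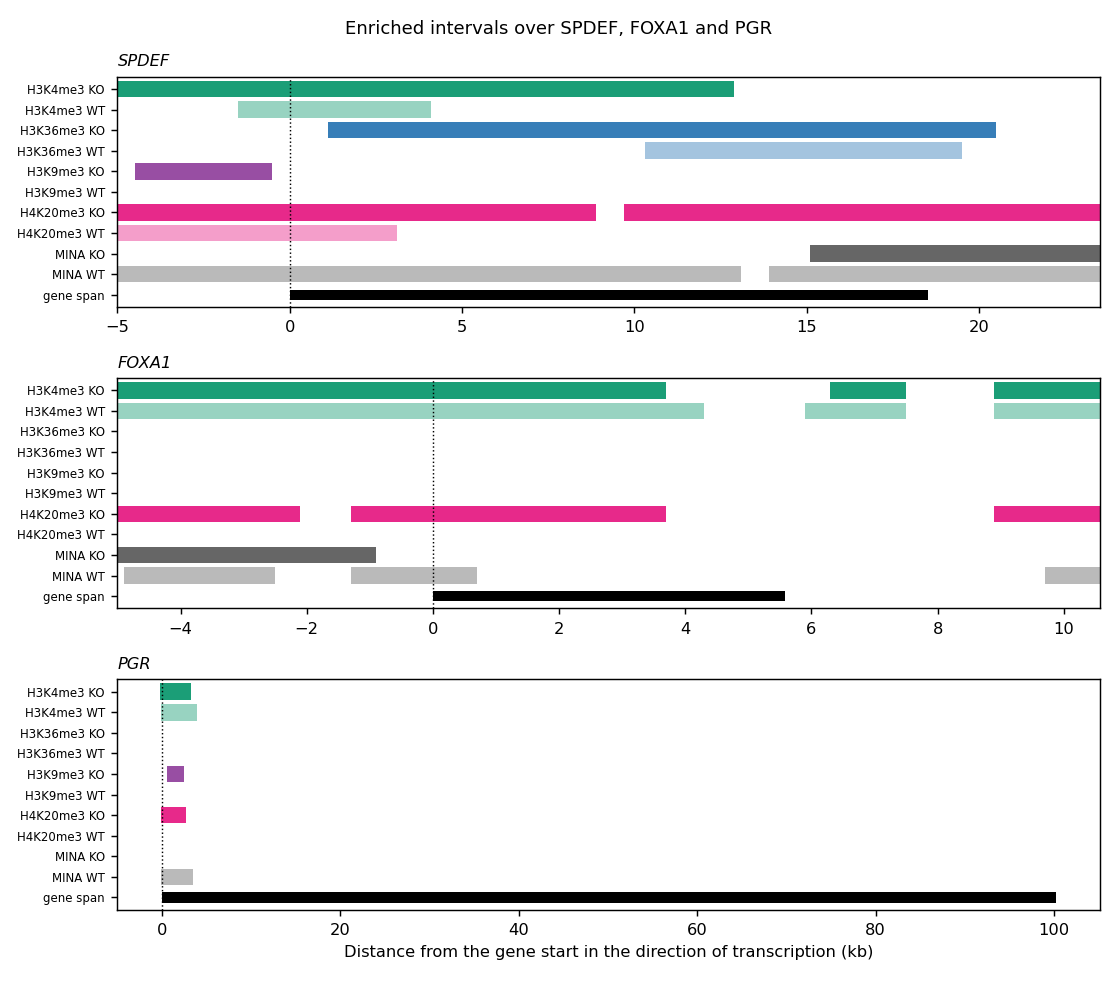
Intervals (bars) of each antibody over SPDEF, FOXA1 and PGR by distance from the gene start in kb, KO (dark) above WT (pale), cropped to the gene span (black) plus 5 kb. The KO bars of H3K4me3 and H3K36me3 over SPDEF are longer than the WT ones, and the H4K20me3 bars at the starts of FOXA1 and PGR have no WT counterpart.

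H4K20me3 was higher in KO over 4 of the 7 genes with at least 1 kb of it, PGR, GATA3, FOXA1 and SPDEF, where the background was 70.0% of tiles. It was lower over 1, TP63 (background 20.8%). Of 10 KO intervals over the regions 8 had no WT partner (80.4% genome-wide), and of 7 WT intervals 5 had no KO partner (44.6%). The share of higher calls was thus no larger than in the tiles.

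What differed among the 4 genes was where the mark lay. At FOXA1, the pioneer factor that opens chromatin for the estrogen receptor, H4K20me3 covered 9.6 kb in KO and had no interval in WT. All 9.6 kb lay on bases with H3K4me3 in KO and in WT, and the middle KO interval ran from 1.3 kb before to 3.7 kb after the start. No H3K9me3 was called in either genotype over FOXA1. The surroundings of FOXA1 held 0.483 Mb of H4K20me3 in KO and 0.0118 Mb in WT, and for H3K9me3 2.71 Mb in KO and 0.438 Mb in WT. The KO over WT ratios there were 40.9 for H4K20me3 and 6.18 for H3K9me3, and within 2 Mb on each side 18.6 and 9.30. Their part in the FOXA1 value was not tested.

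PGR encodes the progesterone receptor. An H4K20me3 interval of 2.8 kb (chromosome 11 from 100997801 to 101000600) and an H3K9me3 interval of 2.0 kb (100998001 to 101000000) lay at its start in KO, with none of either mark over the gene in WT. Both lay wholly under the H3K4me3 interval of KO cells. All 2.8 kb of that H4K20me3 also lay on the WT MINA interval, which covered 3.6 kb in WT and was not found in KO. Around PGR, H4K20me3 was lower in KO (ratio 0.502), and H3K9me3 had a ratio of 1.14. Within 2 Mb on each side these ratios were 0.220 for H4K20me3 and 2.45 for H3K9me3.

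At GATA3, a zinc-finger factor of luminal cells, the KO H4K20me3 interval of 6.2 kb lay in the gene body. It ran from 12.1 to 18.3 kb after the start, entirely within H3K36me3, which covered 95.1% of the gene span in KO. No WT interval of H4K20me3 reached the region, and the surroundings held less in KO (ratio 0.411). H3K9me3 over GATA3 went the other way, with 3.1 kb in KO and 6.3 kb in WT, which is 0.495 of WT. Without the flank KO had none. The WT interval crossed the start and ended 1.3 kb after it, while the KO interval ended 1.9 kb before it. The surroundings had an H3K9me3 ratio of 0.229.

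The gene body of GATA3 carried H3K36me3 over 95.1% of its span in KO and 82.9% in WT. In the region this came to 25.1 kb in KO and 17.0 kb in WT, a ratio of 1.48 that missed the rule, and the KO interval began 7.7 kb before the start. The H3K4me3 nearest to the start ended 4.5 kb before it in KO and 4.3 kb before it in WT, with widths of 7.2 kb in KO and 8.6 kb in WT. The promoter table lists 6 starts for GATA3. RefSeq gives the gene 29866 bp in GRCh38, against 20511 bp for the hg19 span used here. The start matched to the span lies 20511 bp from the RefSeq gene end, so the gene reaches further before it. These H3K4me3 intervals lie on that side in both genotypes, and they were not placed against the other listed starts. The span need not begin at the start in use.

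H3K36me3 was present in 4 of 9 genes in KO and in 4 of 9 in WT, namely ERBB2, GATA3, XBP1 and SPDEF. Windows of their own length held an interval of it in KO in 22.8% of cases for ERBB2, 19.4% for GATA3, 16.2% for XBP1 and 18.9% for SPDEF. One of these 4, SPDEF, was higher in KO (background 15.8% of tiles) and none was lower (background 15.3%). ERBB2, the receptor tyrosine kinase HER2, had 39.0 kb in KO and 28.4 kb in WT. The difference was a KO interval of 9.8 kb from 2.0 to 11.8 kb after the start, which had no WT partner (14.5% of KO intervals genome-wide). Each of the 5 WT intervals over the regions had a KO partner (14.5% had none genome-wide). XBP1, a factor of the unfolded protein response, had 67.8% of its region covered in KO and 66.5% in WT. The cover came from a single interval of 27.0 kb in each genotype. This interval ran from 0.2 to 27.2 kb after the start in KO and from 0.4 to 27.4 kb in WT. The gene span is 6.0 kb, so most of the interval lay past the gene, on the side of CCDC117, the neighbour of XBP1 in the RefSeq table. The lists cannot assign it to XBP1 alone. For the genes without H3K36me3 the same share was 51.4% for ESR1, 43.5% for TP63, 30.4% for PGR, 16.1% for FOXA1 and 15.7% for TFF1.

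Of the receptors that define the triple-negative class, ESR1 and PGR had H3K4me3 without H3K36me3, and ERBB2 had both. An H3K4me3 interval lay in 66.3% of windows of the length of ESR1 in KO and 68.8% in WT, so its presence there is what most such windows show. For PGR these shares were 38.8% in KO and 41.1% in WT, and for ERBB2 24.8% in KO and 26.6% in WT. The region of ESR1 is 422.8 kb long. In KO its H3K4me3 intervals lay from 71.8 to 74.4 kb and from 116.4 to 119.2 kb after the start of the hg19 span. In WT they lay at the same places within 0.2 kb. ESR1 is known to use several starts, and 6 are in the promoter table. None of these matched the start of the span within 150 bases, and the intervals were not placed against them. ERBB2 had 3 H3K4me3 intervals in KO and 3 in WT. The first, at the start of the span, borders PGAP3, and the last reaches past the end towards MIEN1, so the lists cannot assign them to ERBB2 alone. The middle one, inside the gene, was 9.4 kb wide in KO and 11.6 kb in WT. No H3K9me3 or H4K20me3 was called over ERBB2 or XBP1 in either genotype.

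**Figure D3:**
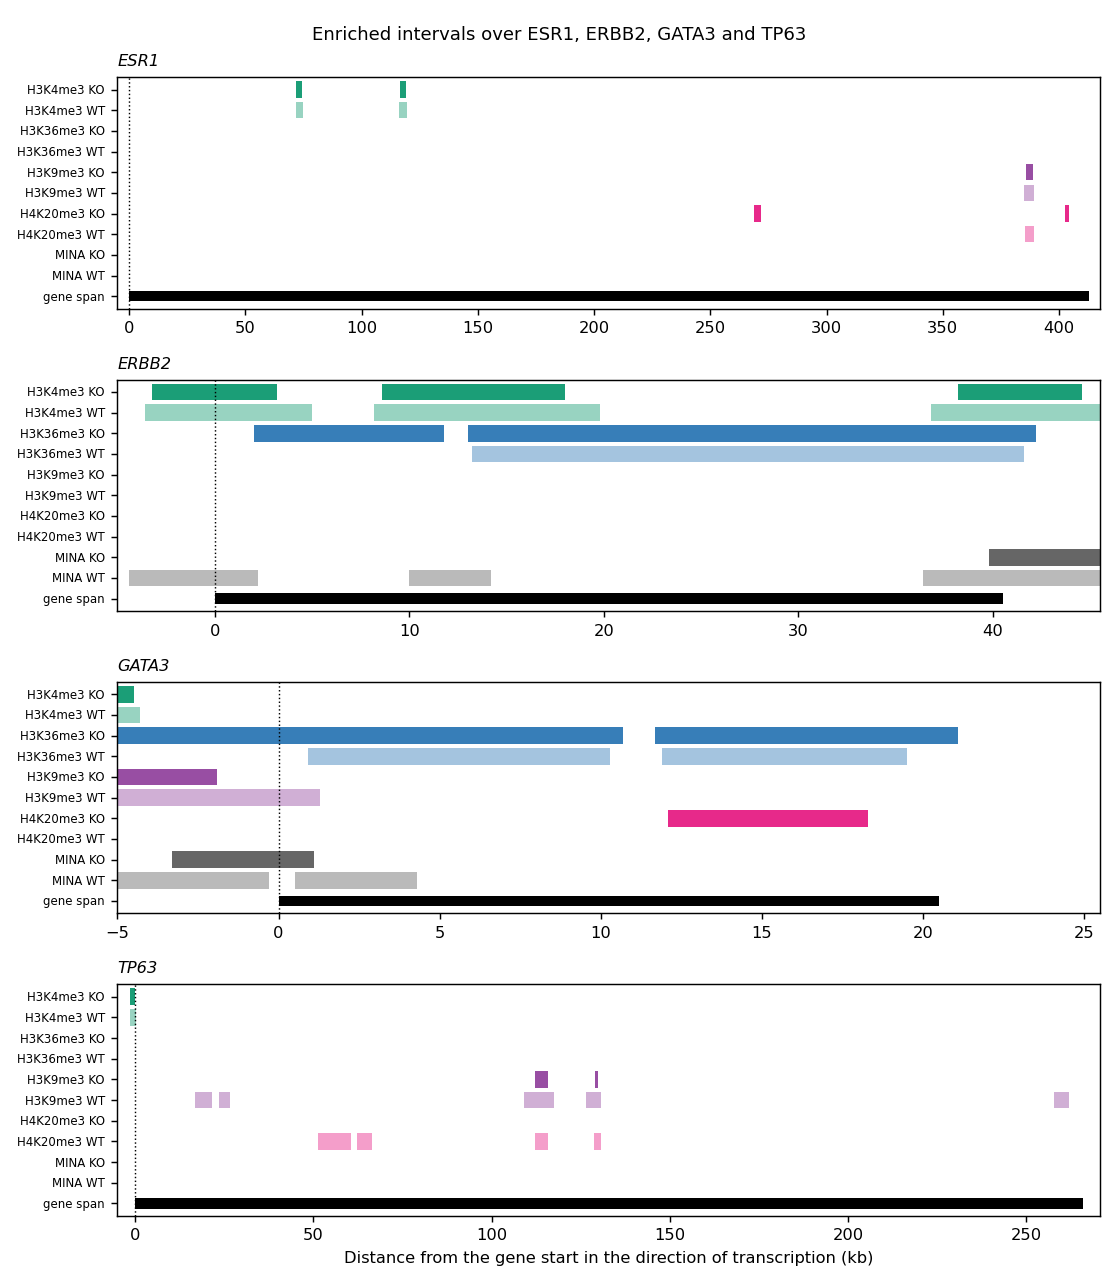
Intervals (bars) of each antibody over ESR1, ERBB2, GATA3 and TP63 by distance from the gene start in kb, KO (dark) above WT (pale), cropped to the gene span (black) plus 5 kb. H3K4me3 keeps its places in all 4 genes, and the H3K9me3 and H4K20me3 bars inside TP63 are mostly WT.

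TP63 had less of both silent marks in KO, by more kb than any of the other genes, but its region is long (275.9 kb). In WT, H3K9me3 covered 8.92% of it and H4K20me3 7.03%. Windows of this length held an H3K9me3 interval in 70.6% of cases in KO and 77.0% in WT. For H4K20me3 these shares were 61.4% in KO and 33.2% in WT. H3K9me3 covered 4.4 kb in KO in 2 intervals and 24.6 kb in WT in 5 intervals, a ratio of 0.179. Both KO intervals lay inside WT ones, from 112.2 to 115.8 kb and from 129.0 to 129.8 kb after the start. H4K20me3 had no interval in KO and 19.4 kb in 4 intervals in WT, of which 5.6 kb lay on WT H3K9me3. The surroundings of TP63 also held less in KO, with ratios of 0.319 for H3K9me3 and 0.400 for H4K20me3 (0.204 and 0.0687 within 2 Mb on each side), and their part in the TP63 values was not tested. The H3K4me3 interval at the start of the span, from which the longer TAp63 forms are made, was 1.4 kb wide in KO and 1.8 kb in WT. Without the flank KO had none of it. The KO interval ended 0.01 kb before the span, and the WT interval reached 0.191 kb into it. Interval ends lie on a grid of 200 bp, so this absence rests on where the span begins. No other H3K4me3 interval lay in the gene, which is known to have an inner start for the ΔN forms of basal cells. H3K36me3 and MINA were not called in either genotype.

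H3K9me3 was higher in KO over 2 of the 6 genes with at least 1 kb of it, PGR and SPDEF (background 30.5% of tiles). It was lower over 2 of these 6, GATA3 and TP63 (background 46.3%). Of 7 KO intervals over the regions 2 had no WT partner (47.2% genome-wide), and of 8 WT intervals 3 had no KO partner (31.4%). The other genes with the mark were ESR1, with 3.0 kb in KO and 4.4 kb in WT, and TFF1, with 3.0 kb in KO and 4.4 kb in WT. In ESR1 the H3K9me3 interval lay near the end of the gene, and H4K20me3 covered none of it in KO and 4.0 kb of it in WT. The KO H4K20me3 intervals of ESR1, 4.6 kb in total, lay elsewhere in the gene.

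TFF1 encodes a small secreted peptide and is a classic target of the estrogen receptor. It had no H3K4me3 in KO or WT, and the nearest interval was 127 kb from its start in each genotype. H4K20me3 covered 4.2 kb of the region in KO and 4.2 kb in WT, beyond the end of the gene span and mostly together with H3K9me3. The start was nonetheless covered by a WT MINA interval of 5.4 kb (chromosome 21 from 43783401 to 43788800), from 2.1 kb before to 3.2 kb after it. The nearest KO MINA interval lay 109 kb from the start.

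MINA was lower in KO over 6 of the 7 genes with at least 1 kb of it (background 70.9% of tiles) and higher over none (background 11.9%). PGR, XBP1 and TFF1 had no interval in KO, against 3.6, 4.6 and 5.4 kb in WT. ERBB2 had 5.7 kb in KO and 19.9 kb in WT, GATA3 4.4 kb in KO and 8.5 kb in WT, and SPDEF the values given above. FOXA1, with 4.1 kb in KO and 5.3 kb in WT, was within 1.5 times, and without the flank KO had none. ESR1 and TP63 had none in either genotype. Of 13 WT intervals 7 had no KO partner (61.2% genome-wide), and all 4 KO intervals had a WT partner (16.9% had none genome-wide).

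At gene starts the MINA antibody gave an interval within 2 kb in 2 of 9 genes in KO, GATA3 and FOXA1, and in 7 of 9 in WT. Of all positions, 2.17% in KO and 5.80% in WT lay as close to one, although gene starts are not ordinary positions. Per the labels KO cells make no mdig, so the KO intervals give what the antibody returned without its target. When KO lengths were divided by the ratio of the whole list, GATA3 came to 1.73 times WT and FOXA1 to 2.64 times, SPDEF to 1.02 and ERBB2 to 0.962. PGR, XBP1 and TFF1 have no KO interval, so their call stays the same under any scaling by construction. This does not show that the call is secure, since the depth is unknown. WT MINA lay on H3K4me3 over its whole length in PGR (3.6 kb), FOXA1 (5.3 kb) and XBP1 (4.6 kb) and over 18.7 of 19.9 kb in ERBB2. It did so over 5.6 of 27.7 kb in SPDEF, 0.741 of 8.54 kb in GATA3 and none in TFF1.

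**Figure D4:**
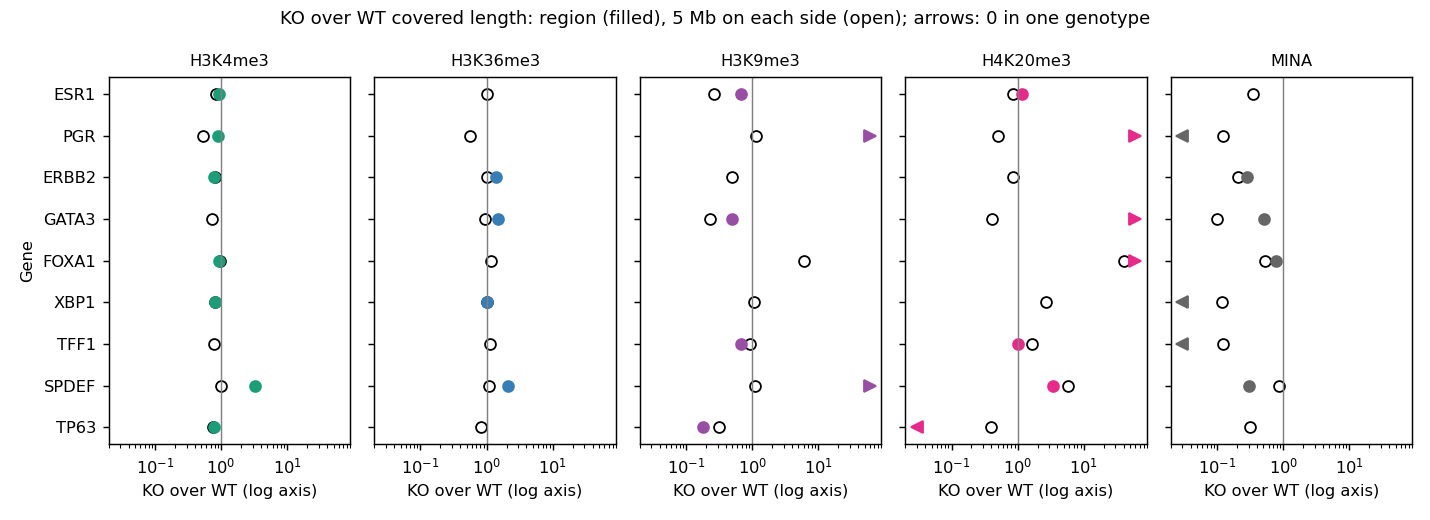
KO over WT ratio of covered length (log axis) for each gene, in the region (filled) and in the 5 Mb on each side (open), with arrows where one genotype has no interval and no filled mark where both have under 1 kb. H3K4me3 over SPDEF stands to the right of its surroundings (3.20 against 1.00), and the gains of H4K20me3 over PGR and GATA3 lie in surroundings below 1.

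Set beside their surroundings, the genes did not all follow them. For H4K20me3, PGR and GATA3 had intervals in KO only while their surroundings held less in KO, and FOXA1, SPDEF and TP63 differed in the direction of their surroundings. XBP1 had no H4K20me3 although the surroundings had a ratio of 2.69. For H3K4me3 the surroundings ranged from 0.527 around PGR to 1.00 around SPDEF, and the genes other than SPDEF with at least 1 kb lay between 0.768 and 0.931. These comparisons place 1 region of up to 422.8 kb beside 10 Mb and carry no test.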

How the data were processed

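Chromatin immunoprecipitation and sequencing (ChIP-seq) was analysed for 9 genes in 10 libraries of MDA-MB-231 cells. Per the submitters' processing notes, reads were aligned with BWA to hg19 and enriched intervals were called with SICER 1.1. The authors deposited 1 interval list per ChIP library, with start and end positions and no height, score or p-value. No header or label states the settings of the caller or a scaling to depth. Since read depth is unknown, no detection limit is given.

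Each gene span of the rule was widened by 5 kb on both sides. Covered length was the number of bases under intervals of a list. A gene was called higher or lower at a fold of 1.5 between KO and WT, with at least 1 kb in either list. Shares of called 50-kb tiles on chromosomes 1 to 22 and X gave the background. Intervals of different lists were matched by an overlap of at least 1 bp. Ratios in the 5 Mb on each side of a region were computed with the region left out. Python 3.11.15 was used, and the counting was checked on simulated lists. With 1 library per antibody and genotype, no test was run.

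The genes and lists were chosen with earlier results of these data known, and all 9 genes were to be named. Alternatives were other flanks, start distances, folds, least lengths, tile lengths and surroundings, merged intervals, and KO lengths scaled by the ratio of the whole list. An hg19 annotation was not used here. Strands came from the RefSeq promoter table (GRCh38.p14), except that of TFF1, which is textbook knowledge.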

Additional observations from a re-analysis of the deposited data

How the results depend on the processing

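Of 111 recomputed counts and background shares, 103 stayed within 1.5 times the reported value. Of 131 recomputed ratios of single genes and their surroundings, 105 did so and 24 moved further in size, to 0 or across 1. The other 2, MINA over GATA3 and SPDEF, had passed the 1.5-fold rule and turned round. Ratios within the rule that crossed 1 were not counted as turned round, and some are among the 105. With KO lengths divided by the ratio of the whole list, FOXA1 MINA went from 0.787 to 2.64 and ESR1 H4K20me3 from 1.15 to 0.517. With surroundings of 2 Mb, H3K9me3 around XBP1 and SPDEF and H4K20me3 around ESR1 crossed 1 too. With 20 kb on each side, 2 genes were higher in KO for H3K36me3. Without the flank, 3 genes held an H3K9me3 interval in KO and 1 was higher in KO for it. With KO lengths divided by the ratio of the whole list, 4 genes were lower in KO for H3K9me3, 3 were lower for H4K20me3, and for MINA 2 were higher and 3 lower. The 2 higher genes were GATA3 (1.73, lower before scaling) and FOXA1 (2.64, within the rule before), both with the 5-kb flanks included. SPDEF passed from below to just above 1 (1.02), which is within the rule, and the 3 lower genes had no KO interval. All KO lengths of a list change alike by construction. With surroundings of 2 Mb in place of 5 Mb, 2 genes had more H3K9me3 around them in KO, and the cause was not tested. The counts of starts with H3K4me3 stayed within 1.5 times under the other distances and the merging. No paired analysis was possible because there is 1 library per antibody and genotype. For the same reason no replicate could be left out. The depth is unknown, and lists with no interval in a region cannot show that a mark is absent there.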
